A study of Mus musculus with 18 samples.

Results

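The microRNA miR-31 was followed through femoral condyle cartilage of mice whose anterior cruciate ligament (ACL) had been ruptured by a single mechanical load. Both of its mature products, miR-31-5p (mmu-miR-31-5p in the table) and miR-31-3p (mmu-miR-31-3p), were taken from the count table by name, which gives 2 of the 1412 mature miRNAs listed. miR-31 had been chosen by its reads in day 7 injured cartilage against the other groups, with the high level there already known, so every difference in its level that involves that group is given as a description without a p-value. Small RNA libraries (18 in all) had been made from cartilage caps of skeletally mature wild-type C57bl6 mice. The injured right knees gave 3 libraries at day 1 after rupture and 3 at day 7, and the uninjured left knees of injured mice gave as many contralateral libraries at each day. Naïve mice, which had no load on either leg, gave a further 6 libraries that the labels place at day 7. Per the series record, mice received the analgesic buprenorphine at the start, with no group named. No group carried a transgene or gene deletion. Each library pooled cartilage from several mice (4 per sample in the series record, whereas the study's scheme has that number at day 7 and fewer mice in day 1 and naïve pools), and no label tells which libraries have mice in common, so the p-values measure only the spread between these libraries. In that scheme the left and right knees of the naïve mice were pooled apart, so the 6 naïve libraries hold opposite knees of the same mice, as the injured and contralateral libraries of a day do. All libraries were fitted as independent, and every n = 6, SD and p-value that involves naïve cartilage rests on that.

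A miRNA is cut from a hairpin transcript, and the strand that is loaded into an Argonaute protein silences messenger RNAs that pair with its seed, the bases near its 5′ end. The strand from the other arm of the hairpin is usually degraded and therefore scarcer. miR-31 is known from keratinocytes and other epithelia, and from osteogenic differentiation of marrow stromal cells. The 2 mature sequences and their hairpin are shown because all values below rest on reads assigned to these 2 mature miRNAs. Whether each read matches the letters exactly cannot be seen from the counts. Capitals in the mature sequences mark the seed (bases 2 to 8), and capitals in the hairpin mark the mature arms.
miR-31-5p: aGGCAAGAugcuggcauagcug
miR-31-3p: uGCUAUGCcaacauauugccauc
Mir31 hairpin: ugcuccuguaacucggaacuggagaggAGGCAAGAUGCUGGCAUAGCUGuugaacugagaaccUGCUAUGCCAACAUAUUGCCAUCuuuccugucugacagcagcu

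The sequences are those of RefSeq on GRCm38.p6, in which 1184 of the 1412 names of the count table were found. The hairpin, of 106 bases, lies on the reverse strand at chr4:88910557-88910662, inside exon 3 of 3 of the long non-coding RNA gene AL805899.1. miR-31-5p maps to chr4:88910614-88910635 and miR-31-3p to chr4:88910577-88910599. The nearest protein-coding gene is the interferon gene Ifne, 30.4 kb away, and the tumour suppressor Cdkn2a, which encodes inhibitors of cyclin-dependent kinases and p53 turnover, lies 364 kb away. Each arm was alone in carrying its seed among the 1679 mature sequences of the reference. Names of the table without a sequence in the reference could not be compared. Of those with one, the nearest to miR-31-5p was miR-1941-5p, at 7 single-base edits and with 42 reads over all libraries. It was followed by 5 miRNAs at 8 edits. Among those 5, miR-1947-5p had 292 reads and the others had between 1 and 3. miR-1941-5p and miR-1947-5p are printed, without capitals, to be set beside miR-31-5p.
miR-1941-5p: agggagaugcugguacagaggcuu
miR-1947-5p: aggacgagcuagcugagugcug

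miR-31-5p was a low-abundance miRNA in cartilage without injury and stood higher in all day 7 injured libraries. Over the 18 libraries it had 381 reads out of totals of between 758388 and 4088852 miRNA reads per library. Normalised abundance is given as CPM, the reads per 1000000 of the library size after scaling by TMM, and each library's 95% interval is an exact Poisson interval that covers counting error only. In the naïve libraries miR-31-5p had 16, 15, 10, 13, 13 and 11 reads, with a lowest value of 6.09 CPM, a median of 7.27 and a highest of 11.1. In the day 7 injured libraries it had 17, 64 and 123 reads, which is 23.4, 28.96 and 40.9 CPM. All 3 day 7 injured libraries lay above every other library, and the other 15 held between 6 and 17 reads at between 4.12 and 11.1 CPM.

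**Figure D1:**
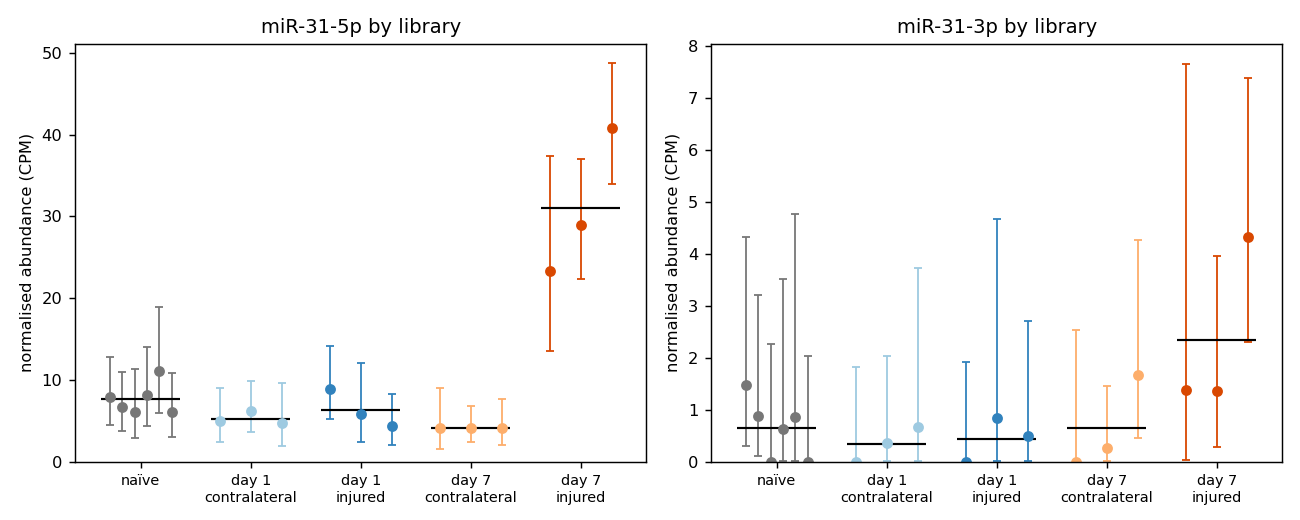
Normalised abundance (CPM) of miR-31-5p (left) and miR-31-3p (right) in each library, by group, with points for libraries, vertical bars for 95% exact Poisson intervals and horizontal lines for group means. For miR-31-5p the day 7 injured points sit at 23.4, 28.96 and 40.9 CPM. All lie above the highest point of the other 15 libraries, at 11.1 CPM. The miR-31-5p interval of day 7 injured replicate 1 (13.6 to 37.4 CPM) still overlaps some of other groups, such as naïve replicate 5 (5.91 to 18.98). Those of day 7 injured replicates 2 and 3, from 22.3 and 34.0 CPM up, overlap none of other groups. The intervals of miR-31-3p overlap between groups.

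In the contralateral knees, the day 1 libraries had 10, 17 and 7 reads of miR-31-5p, which is 4.93, 6.19 and 4.69 CPM. The day 7 contralateral libraries had 6, 16 and 10 reads, at 4.12, 4.17 and 4.16 CPM. The day 1 injured libraries had 17, 7 and 9 reads, at 8.88, 5.86 and 4.37 CPM, so their range held that of the day 1 contralateral knees and overlapped that of naïve cartilage. The order of the group means was thus 31.1 ± 8.93 CPM (SD, n = 3) in day 7 injured, 7.68 ± 1.89 (SD, n = 6) in naïve, 6.37 ± 2.30 (SD, n = 3) in day 1 injured, 5.27 ± 0.803 (SD, n = 3) in day 1 contralateral and 4.15 ± 0.0277 (SD, n = 3) in day 7 contralateral cartilage. Below day 7 injured cartilage, no pair of neighbours in this order differed past the threshold in the tests given further on.

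The reads and the depth of each library set how exact these levels are. Day 7 injured replicate 1 was the shallowest library, with 758388 reads in all, and its 17 reads of miR-31-5p allow a level of between 13.6 and 37.4 CPM. The intervals of the other two were 22.3 to 37.0 and 34.0 to 48.7 CPM. Level and depth ran in the same order over these 3 libraries, and whether depth had a part in that was not tested. The variance of the reads divided by that of Poisson counting at equal level, where 1 is counting error alone, was 0.655 in naïve, 0.267 in day 1 contralateral, 1.61 in day 1 injured and 4.07 in day 7 injured libraries. It was 0.000365 in day 7 contralateral libraries, whose near-equal levels are closer together than counting error gives on average: their 3 intervals reach from 1.51 to 8.97 CPM.

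**Figure D2:**
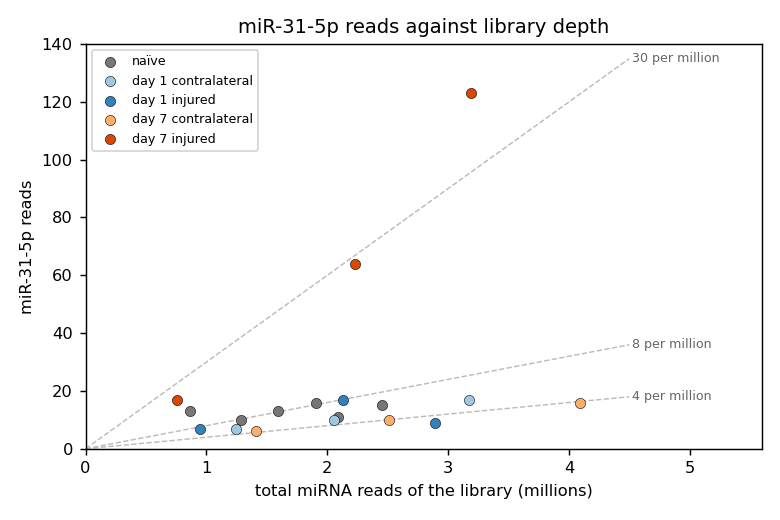
Reads of miR-31-5p against the total miRNA reads of each library (axis in units of 1000000 reads), with a point for each library coloured by group and broken lines for 4, 8 and 30 CPM before TMM scaling. The 15 libraries of the other groups hold between 6 and 17 reads at any depth, and the day 7 injured libraries hold 17, 64 and 123 reads and lie near the line for 30.

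In its place by count within a library, miR-31-5p stood at 317 to 358 in naïve, 362 to 386 in day 1 contralateral, 325 to 382 in day 1 injured, 384 to 393 in day 7 contralateral and 229 to 275 in day 7 injured cartilage, counted from the most abundant miRNA. The ranks of the day 7 injured libraries did not overlap those of any other group. Even in day 7 injured cartilage, more than 200 miRNAs were thus more abundant.

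Day 7 injured cartilage was set against each of its controls to describe the size of the difference in miR-31-5p after rupture. By limma-voom, a linear model of log2 counts weighted by their precision, the difference from naïve cartilage was 4.15-fold (log2 fold change 2.05 ± 0.26 SE, 95% interval 1.50 to 2.60). The difference from the contralateral knees at the same day was 7.29-fold (log2 2.87 ± 0.33 SE), and that from injured knees at day 1 was 4.97-fold (log2 2.31 ± 0.33 SE). The injured minus contralateral difference was larger at day 7 than at day 1 by 2.67 ± 0.51 SE on the log2 scale. These values share the 3 day 7 injured libraries and are not separate evidence. Among the 428 miRNAs tested, miR-31-5p stood at place 22 from the highest log2 fold change against naïve, 7 against contralateral and 17 against day 1 injured cartilage. As background, 14.5% of the tested miRNAs passed the threshold as higher against naïve, 13.8% against contralateral and 12.1% against day 1 injured cartilage, and 15.4%, 17.5% and 18.7% had all day 7 injured libraries above those of the respective group.

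**Figure D3:**
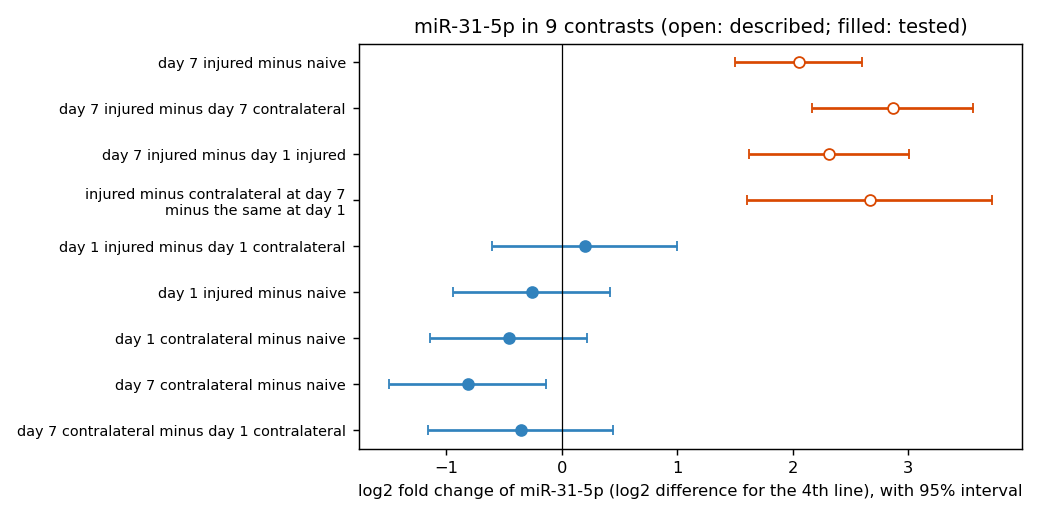
Log2 fold change of miR-31-5p in 9 contrasts with 95% limma-voom intervals, with open circles for contrasts that hold the day 7 injured libraries and are described only, and filled circles for those tested. The open circles lie between 2.05 and 2.87, and of the filled circles the interval of day 7 contralateral minus naïve alone (-1.50 to -0.13) leaves out 0.

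The day 1 groups address whether miR-31-5p differed within a day of the load, and no difference was detected there. The day 1 and naïve levels were part of the comparison by which miR-31 was chosen. The p-values given here are therefore not independent of that choice. Injured and contralateral knees at day 1 differed by 0.20 ± 0.38 SE on the log2 scale (95% interval -0.60 to 1.00, limma-voom adjusted p = 0.997), and their libraries overlapped. This interval holds lower and higher levels alike. Without day 1 injured replicate 1, whose 8.88 CPM was the highest of its group, the direction turned and the difference was -0.14. Day 1 injured and naïve cartilage differed by -0.26 ± 0.33 SE (95% interval -0.94 to 0.42, limma-voom adjusted p = 0.992), and day 1 contralateral and naïve cartilage by -0.46 ± 0.32 SE (95% interval -1.14 to 0.22, adjusted p = 0.996). In the same fit, 0 of 428 miRNAs were called in each of these 3 comparisons by limma-voom, edgeR or DESeq2, and by limma-voom 8, 8 and 4 had an unadjusted p under 0.05.

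The contralateral knee at day 7 held the lowest levels of miR-31-5p of any group. All 3 of its libraries (4.12 to 4.17 CPM) lay below all 6 naïve libraries (6.09 to 11.1 CPM), a separation that 0.935% of the 428 tested miRNAs showed in this direction. The difference was -0.81 ± 0.33 SE on the log2 scale (95% interval -1.50 to -0.13), with an unadjusted p = 0.0219 and a limma-voom adjusted p = 0.675, and so did not pass the threshold. limma-voom and edgeR called 0 miRNAs in this comparison and DESeq2 called 1, and 23 had an unadjusted p under 0.05 by limma-voom. Pooled over libraries, 32 reads stood against 78, a ratio of 0.558 after TMM scaling of the library sizes (exact 95% interval 0.358 to 0.853, counting error only). The day 7 contralateral libraries also lay below those of day 1 (4.69 to 6.19 CPM), as did 6.78% of the tested miRNAs, at a log2 difference of -0.35 ± 0.38 SE (limma-voom adjusted p = 0.938). The larger fold against contralateral than against naïve cartilage in injured knees at day 7 is this same difference between the controls. Contralateral knees belong to injured mice, so an effect of injury on the other limb cannot be told apart here from other differences between the 2 sets of mice. The contralateral and naïve levels were also part of the comparison by which miR-31 was chosen. The separations, p-values and ratio given here are therefore not independent of that choice.

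The passenger arm, miR-31-3p, had 33 reads in all and was seen in 13 of 18 libraries, too few for the expression filter, so of the 2 arms miR-31-5p alone entered the tests. The naïve libraries held 3, 2, 0, 1, 1 and 0 reads of miR-31-3p. The day 1 contralateral libraries held 0, 1 and 1, the day 1 injured 0, 1 and 1, and the day 7 contralateral 0, 1 and 4. The day 7 injured libraries held 1, 3 and 13 reads, at 1.37, 1.36 and 4.32 CPM. The highest value was in a day 7 injured library, but the groups overlapped, and the 5 libraries with 0 reads allow levels of up to 1.48 to 2.06 CPM (a limit of 3 counts per library). Pooled over libraries, the 17 day 7 injured reads against 7 naïve reads made a ratio of 4.28 after TMM scaling of the library sizes (exact 95% interval 1.69 to 12.2), and against 5 day 7 contralateral reads a ratio of 4.40 (1.56 to 15.2). For miR-31-5p the same ratios were 4.60 (3.53 to 6.06) and 8.24 (5.66 to 12.4). These intervals cover counting error only, and 13 of the 17 reads came from 1 library.

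The share of miR-31 reads on the 5p arm was then compared, since it does not depend on the total level that chose miR-31. Over all libraries 92.0% of the 414 reads were miR-31-5p (exact 95% interval 88.99 to 94.4). Naïve libraries had a mean share of 93.0% ± 6.29 (SD, n = 6), and day 7 injured libraries of 93.5% ± 2.68 (SD, n = 3). The difference of 0.443 percentage points was smaller than the spread between libraries (two-sided exact permutation test, p = 0.929, 84 splits, smallest possible p = 0.0119). In each naïve library, 1 read more or less on the 3p arm moves the share by several points.

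The neighbours of miR-31-5p in abundance were read beside it. In naïve cartilage it held place 343 of the 428 tested miRNAs, just below miR-93-3p, miR-673-5p and miR-184-3p and just above miR-500-3p, miR-195b and miR-1947-5p. The log2 fold changes of these 6 between day 7 injured and naïve cartilage ran from -1.04 to 0.51, and none passed the threshold. The 6 neighbours do not stand for all scarce miRNAs. Of the 155 tested miRNAs under 20 CPM in naïve cartilage, a limit chosen with the values in view, 30 (19.4%) were called, all higher. The expression filter can be met by the day 7 injured libraries alone, so a scarce miRNA can enter the tests by being high there. That favours calls in the higher direction among these 155, and no conclusion is drawn from it. By log2 fold change miR-31-5p held place 14 from the highest of these 155. The standard error of its log2 fold change, 0.26, was below their median of 0.44. Its tagwise biological coefficient of variation in edgeR was 0.218, where the trend at its abundance was 0.330. miR-1947-5p, which also stands near miR-31-5p in sequence, went from 7.29 ± 2.08 CPM (SD, n = 6) in naïve to 4.92 in day 7 injured cartilage, the opposite direction, with a limma-voom adjusted p = 0.571.

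**Figure D4:**
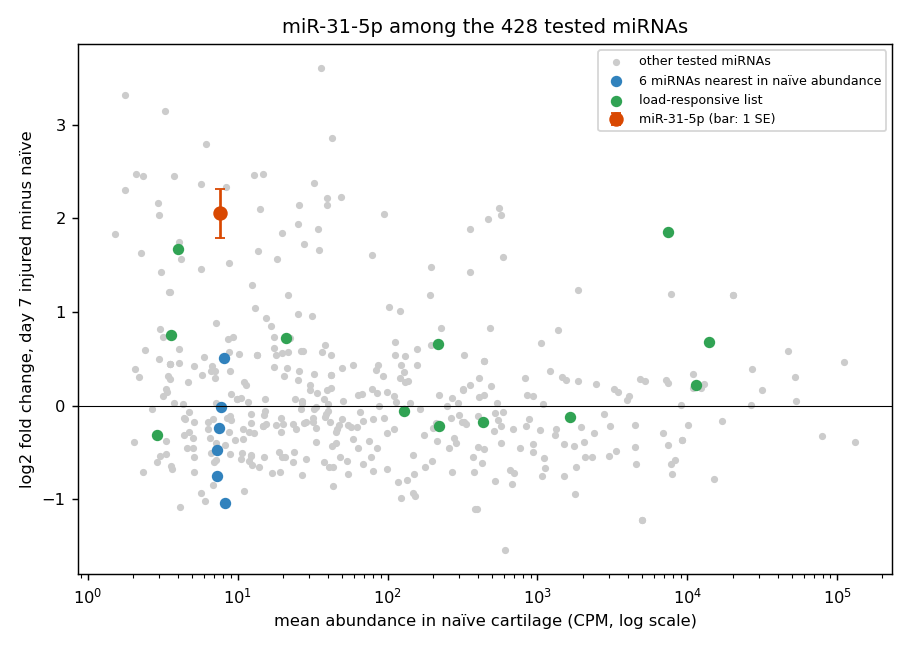
Log2 fold change between day 7 injured and naïve cartilage against mean CPM in naïve cartilage (log axis) for the 428 tested miRNAs, with miR-31-5p, its 6 neighbours in abundance and the load-responsive list in colour. miR-31-5p lies at 2.05, whereas its 6 neighbours lie between -1.04 and 0.51. Of the 155 tested miRNAs under 20 CPM in naïve cartilage, 30 were called, all higher, a direction that the expression filter favours for scarce miRNAs.

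The only other miRNA hairpin within 1 Mb of Mir31 is Mir491, on the opposite strand at chr4:88122040-88122125 and 788 kb away. miR-491-5p had 23 reads over all libraries, at 0.703 CPM in naïve and 1.35 CPM in day 7 injured cartilage on average, and miR-491-3p had 3 reads. Neither entered the tests.

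Other miRNAs described as responding to mechanical load in cartilage or chondrocytes were set beside miR-31-5p. This list, both arms of miR-21a, miR-27a, miR-27b, miR-221, miR-222 and miR-365, was chosen with earlier results of these data known. Its calls and p-values at day 7 are therefore descriptions and no independent test. Of its 13 arms, 12 were tested, and 3 were called between day 7 injured and naïve cartilage, all higher, with 9 not past the threshold. This is 3 of 12 against 18.2% called among all tested miRNAs and 14.5% called higher. The median log2 fold change was 0.44, against -0.00 over all 428. miR-21a-5p, a miRNA raised in many injured and fibrotic tissues, rose 3.61-fold (limma-voom adjusted p = 8.23e-05). Its other arm, miR-21a-3p, was also scarce, with a mean of 3.99 CPM over the naïve libraries and 10.96 CPM over the day 7 injured libraries, and rose 3.18-fold (adjusted p = 0.0167 by limma-voom). miR-27b-3p, for which the matrix metalloproteinase MMP13 is a described target, rose 1.60-fold (adjusted p = 0.0196 by limma-voom). The 3 called arms are shown for comparison of their seeds, in capitals, with that of miR-31-5p.
miR-21a-5p: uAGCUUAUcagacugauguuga
miR-21a-3p: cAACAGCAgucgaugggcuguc
miR-27b-3p: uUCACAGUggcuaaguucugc

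None of these seeds is that of either miR-31 arm. The other tested arms had log2 fold changes of between -0.31 (miR-365-2-5p) and 0.76 (miR-365-1-5p), with miR-27a-5p at 0.66, miR-27b-5p at 0.72, miR-27a-3p at 0.22, miR-221-5p at -0.06, miR-221-3p at -0.12, miR-222-3p at -0.18 and miR-365-3p at -0.22. Against the contralateral knees at day 7, both miR-21a arms were called, the 5p arm at 2.93-fold and the 3p arm at 3.44-fold, and miR-27b-3p missed the threshold (limma-voom adjusted p = 0.0707). These 2 of 12 stand beside 14.7% called among all tested miRNAs, which is about the same share. In the comparison of injured and contralateral knees at day 1, 0 of the 12 were called by limma-voom, edgeR or DESeq2.

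The miRNAs whose pattern was most like that of miR-31-5p were sought by Pearson correlation of log2 CPM over the 18 libraries. The closest were miR-541-5p (r = 0.945), miR-134-5p (0.926), miR-411-3p (0.918), miR-379-3p (0.916) and miR-300-3p (0.914), whereas the median over all other tested miRNAs compared was -0.06. All 5 map to chromosome 12, away from Mir31 on chromosome 4, within a cluster of imprinted miRNA genes, and they are printed with the seed in capitals.
miR-541-5p: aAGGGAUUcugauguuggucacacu
miR-134-5p: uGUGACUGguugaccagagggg
miR-411-3p: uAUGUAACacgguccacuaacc
miR-379-3p: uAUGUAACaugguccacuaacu
miR-300-3p: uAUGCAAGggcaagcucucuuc

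miR-411-3p and miR-379-3p share a seed, and none of the 5 shares one with miR-31. The likeness rested on the day 7 injured libraries, where each of the 5 was high: miR-541-5p went from between 344 and 580 CPM in the other libraries to between 1758 and 1927 in these 3, and miR-379-3p from between 12.4 and 30.3 to between 105 and 124. Without the day 7 injured group, over 15 libraries, r fell to 0.614 for miR-541-5p, 0.365 for miR-134-5p, 0.486 for miR-411-3p, 0.477 for miR-379-3p and 0.369 for miR-300-3p. For deviations from the group means over 18 libraries, r was between 0.181 (miR-411-3p) and 0.497 (miR-300-3p). The points of these correlations share library, depth and scaling, and no p-value is attached to them. In fold, the 5 lay between 3.98 (miR-541-5p) and 4.70 (miR-134-5p) against naïve cartilage, around the 4.15 of miR-31-5p, but in naïve cartilage they were more abundant, at 25.5 CPM for miR-379-3p to 469 for miR-541-5p.

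**Figure D5:**
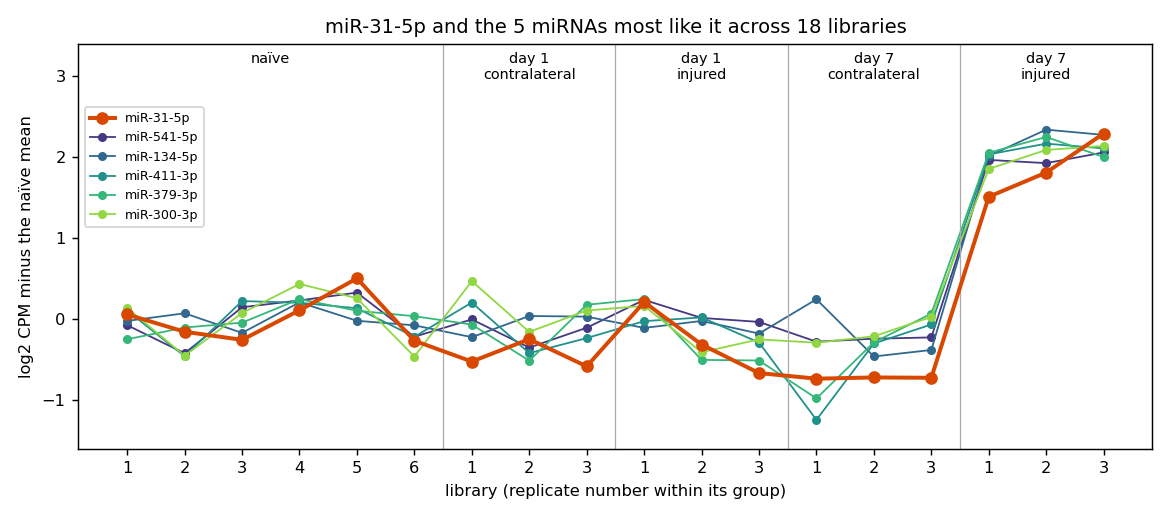
Log2 CPM minus the naïve mean for miR-31-5p (thick line) and the 5 miRNAs most like it, with a point for each of the 18 libraries in the order of groups and replicates. All 6 lie high in the day 7 injured libraries, and miR-31-5p lies below its naïve mean in every contralateral library at both days. It also lies below that mean in day 1 injured replicates 2 (-0.31) and 3 (-0.66), and the naïve libraries themselves run from -0.27 to 0.50.

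Markers of other cell types were read beside these levels, since the libraries come from tissue in which fewer cells of a type and less RNA per cell cannot be told apart. The labels call the cells chondrocytes. The cartilage miRNAs miR-140 and miR-455 (4 arms) were present in every library, with sums of 5029 to 10499 CPM, but the 9 skeletal muscle arms summed to between 55110 and 274804 CPM, so the tissue was not chondrocytes alone. Of the marker arms listed, 0 were without a read in all libraries. The 11 epithelium and skin arms (miR-200, miR-141, miR-429, miR-203 and miR-205) were read because miR-31 is known from epithelia. They summed to 208 to 255 CPM in naïve and 124 to 167 CPM in day 7 injured cartilage. The largest were miR-200c-3p (means of 124 and 64.9 CPM) and miR-203-3p (84.6 and 61.7). miR-141-3p (2.58 and 3.36) and miR-429-3p (2.17 and 2.42) went the other way. Of the 4 tested arms 1 was called lower, beside 16 of all 428 miRNAs. miR-205-5p reached at most 2.46 CPM in any library. Whether epithelial cells had a part in the level of miR-31-5p was not tested. Leukocyte arms summed to 6655 to 11228 CPM in naïve and 8237 to 9689 in day 7 injured cartilage, muscle arms to 67501 to 198922 and 69642 to 133933, and vascular arms to 48414 to 83557 and 74494 to 81139, so these ranges overlapped. Single arms could still differ: of the 8 tested leukocyte arms, 1 was called lower. This was miR-150-5p, with means of 604 and 194 CPM (limma-voom adjusted p = 0.00317). The erythroid sum did not overlap, at 10449 to 15996 CPM in naïve and 5081 to 7028 in day 7 injured cartilage, and nor did the epithelium and skin sum given above. Of the 7 tested erythroid arms, 4 were called lower, beside 16 of all 428 miRNAs. The part of this erythroid shift in the level of miR-31-5p was not tested.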

How the data were processed

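Mature miRNA counts were measured by small RNA sequencing in 18 cartilage libraries. The authors removed adapters, aligned the reads to mature miRBase sequences with bowtie, and deposited raw counts without normalisation. How reads that match several sequences were counted was not stated. The submitters' processing notes name GRCm38 and also GRCh38, Bowtie 1.3.0 and SAMtools 1.12. Groups came from the treatment label. Each row of the table was tied to the sample whose title holds the same library number, although the prefix differs, with no second identifier to check it. Left and right naïve libraries come from the same mice, and since no label pairs them they were treated as independent.

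In R 4.3.3, filterByExpr of edgeR 4.0.16 (minimum count 10, minimum total 15) kept 428 of 1412 miRNAs. TMM-scaled counts were fitted with limma 3.58.1 (voom, 1 mean per group, all 18 libraries). Two-sided p-values were adjusted by Benjamini-Hochberg over the 428 miRNAs within each contrast, with a threshold of 0.05. Correlations were computed on log2 CPM (prior count 2). Exact tests used scipy 1.17.1, and the figures matplotlib 3.10.9. The procedure was tested on simulated data first.

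The members and lists were chosen with earlier results of these data known. The miRNAs named were both arms of miR-31, the 5 most alike in pattern, the tested load-responsive arms, hairpins within 1 Mb of Mir31, the nearest in sequence (ties kept), and 3 neighbours in abundance on each side. Alternatives were other scalings, filters and tests (edgeR, DESeq2 1.42.0), and leaving out each library. Totals of 758388 to 4088852 reads per library limit the precision at this level, and PCR copies are not independent molecules.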

Additional observations from a re-analysis of the deposited data

Results flagged for a closer look

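One value stood apart within its group. Without TMM scaling, naïve replicate 5 held 15.04 reads of miR-31-5p per 1000000 total counts, against 5.27 to 8.38 in the other 5 naïve libraries, and its gap to the nearest of them was 0.682 of the whole range, past Dixon's 95% limit for 6 samples. On the TMM scale used for the report the same library stood at 11.1 CPM and the gap was 0.578 of the range, which is not past that limit. It held 13 reads of miR-31-5p. Chance alone marks about 1 group in 20 for each measure looked at. The CPM of miR-31-3p (gap of 0.399 of the range) and the 5p share (0.255) were also looked at and were not past the limit. A mark by chance on any of these measures is therefore likelier than that. The day 7 injured libraries, at 22.4 to 38.6 per 1000000 total counts, lay above it on this scale too.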

How the results depend on the processing

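Of the values recomputed under other settings, 244 kept their direction and their side of the threshold or moved by less than the spread, 4 moved further and 5 turned direction. miR-31-5p in day 7 injured against naïve cartilage ran from 1.95 to 2.09 (log2) over 7 other scalings, filters and tests and from 1.85 to 2.26 with each library left out. Leaving out each library moved the difference from day 7 contralateral cartilage between 2.67 and 3.08, that from day 1 injured between 2.14 and 2.75, and the day 7 minus day 1 difference between 2.45 and 3.06. The upper ends of the latter pair came without day 1 injured replicate 1. Injured minus contralateral at day 1 ran from -0.14 to 0.47 with a library left out (adjusted p 0.984 to 1.000) and from 0.02 to 0.38 otherwise. Day 7 contralateral minus naïve ran from -0.85 to -0.74 with a library left out (limma-voom adjusted p 0.340 to 0.927) and from -0.91 to -0.80 otherwise (0.576 to 1.000). With a library left out, the range for day 1 injured minus naïve was -0.65 to -0.04, for day 1 contralateral minus naïve -0.63 to -0.42 and for day 7 minus day 1 contralateral -0.36 to -0.19, none past the threshold under any setting run. The 5p share difference ran from -1.32 to 1.96 percentage points, and was negative without naïve replicate 1 (-1.32), naïve replicate 2 (-0.516), day 7 injured replicate 1 (-0.0449) or day 7 injured replicate 2 (-0.584). The cause of these turns was not tested. miR-31-3p kept a value of 1.70 ± 0.66 SE with every miRNA fitted, 1.91 by edgeR and 1.18 to 2.21 with a library left out, and gave none with the expression filter on. Of the 5 most alike miRNAs, 2 were also among the closest 5 by Spearman's rho and 0 by deviations from group means. The load-responsive list had 2 to 3 calls. Calls against naïve cartilage numbered 78, but 135 with sample quality weights. The median log2 fold change of all miRNAs, -0.00, was -0.13 with unscaled library totals and 0.12 with every miRNA fitted, beside 2.05 for miR-31-5p. miR-31-5p, at 6 reads in 1 library, dropped out where 10 counts in every library were asked. No paired analysis was possible because the labels give no replicate numbers or pool names that tie libraries of different groups.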
